A study of Rattus norvegicus with 9 samples.

Results

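Immediate-early genes are transcribed within minutes of a stimulus, without new protein synthesis, and 10 of them were described here. They were Fos, Fosb, Fosl1, Jun, Junb, Atf3, Egr1, Egr3, Ier2 and Nr4a1, taken by gene symbol from the 17602 genes of the deposited expression table, and all 10 were found and were above 0 TPM in every library. Expression was given as TPM, a transcript abundance that is scaled to transcript length and to the same total in each library, so that levels could be compared between genes. Wild-type male Lewis rats, aged 10 to 12 weeks, made up 3 groups with 3 libraries each. Intact libraries came from synovium around the medial meniscus of knees without surgery. Sham libraries came from the same synovium 1 week after the joint capsule had been opened and closed. pMx libraries came from the tissue that had regrown 1 week after partial medial meniscectomy, an operation that takes away the front of that meniscus once its attachment to the tibia is released. The surrounding synovium was trimmed off that tissue, so pMx and Sham differed in both the operation and the tissue sampled. The labels call the libraries biological replicates but do not name the animals, so each p-value measures the spread between these libraries only.

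FOS and JUN proteins pair through leucine zippers to form AP-1, a transcription factor that binds matrix protease, cytokine and growth genes. ATF3 is a stress-induced partner of JUN proteins, EGR1 and EGR3 are zinc-finger factors of the growth-factor response, IER2 is a short nuclear protein, and NR4A1 is an orphan nuclear receptor. Serum response factor and CREB switch on most of these genes after MAP kinase, calcium or cAMP signals. In connective tissue they are known to respond to mechanical load, wounding and the handling of tissue, and their transcripts decay quickly.

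Markers of synovial fibroblasts were present in all libraries, with the 11 of them summing to 9924 to 13694 TPM in Intact, 16436 to 18757 TPM in Sham and 39900 to 43564 TPM in pMx. The largest parts of the pMx sum were the matrix genes Col1a1, Col1a2 and Lum, with means of 15669, 14118 and 7012 TPM. Pdgfra averaged 70.2, 84.6 and 79.8 TPM in Intact, Sham and pMx. These markers did not move as 1 group, since 6 were called higher and 4 lower (Dcn, Prg4, Has1 and Clic5) in pMx against Intact. Intact replicate 3 stood apart through skeletal muscle, whose 10 markers summed to 43622 TPM there, 69.2 and 212 TPM in the other Intact libraries, 273 to 2948 TPM in Sham and 91.1 to 3006 TPM in pMx.

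Relative to Intact, the pMx tissue had less Nr4a1, Egr1, Jun, Fosb and Ier2 and more Fosl1, while Fos, Junb, Atf3 and Egr3 did not pass the test. Mean TPM in pMx was 72.9% lower for Nr4a1, 62.0% lower for Egr1, 56.9% lower for Jun, 56.4% lower for Fosb and 40.9% lower for Ier2, and Fosl1 stood 12.3-fold higher. Against Sham, 3 of the 10 genes passed: Fosl1 was higher in pMx, and Jun and Egr1 were lower. No member passed between Sham and Intact. The Jun difference there (log2 fold change -0.59) was nonetheless about as large as the one that passed between pMx and Sham (-0.57).

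Genes were called at an adjusted p below 0.05 in limma (Benjamini-Hochberg over 16512 tested genes). In pMx against Intact, 5 of 10 members fell and 1 rose, where 27.1% of all tested genes were called lower and 23.4% higher. With an absolute log2 fold change above 1 added, 4 members were lower and 1 was higher, against 7.89% and 6.4% of all genes. The pMx values lay wholly below the Intact values for 4 members (Jun, Egr1, Ier2 and Nr4a1), compared with 30.6% of all genes. In pMx against Sham, 2 members fell and 1 rose, where 18.9% of all genes were called lower and 17.7% higher, shares near those of the members. Adding the fold-change limit kept Fosl1, with 3.36% of all genes called higher on that rule. In Sham against Intact, limma called 0 of 10 members, where 6.73% of all genes were called higher and 5.97% lower. At an unadjusted p below 0.05 there were 4 members in that comparison (Jun, Ier2, Fosl1 and Egr3), against 28.7% of all genes. Sham lay wholly below Intact for 3 members (Ier2, Egr1 and Egr3), compared with 16.4% of all genes. Without Intact replicate 3 the counts were 5 in pMx against Intact, where Fosb was lost, and 1 in Sham against Intact, where Ier2 was gained.

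Most members lay below 0 in each comparison, including members that were not called. Log2 fold changes of log2(TPM + 1) were below 0 for 9 of 10 members in Sham against Intact, with a median of -0.47, and over all tested genes 55.0% were below 0 and the median was -0.02. They were below 0 for 9 of 10 in pMx against Intact (median -0.65, all genes -0.03) and for 8 of 10 in pMx against Sham (median -0.18, all genes -0.01). Of all tested genes, 54.0% and 51.4% were below 0 in those comparisons. The 8 members included Junb (-0.01) and Atf3 (-0.04), which lay close to 0. These comparisons share groups and are not independent of each other. Without Intact replicate 2, the library highest in most members, 9 of 10 were still below 0 in both comparisons with Intact, and the medians were -0.23 for Sham and -0.41 for pMx. Between pMx and Sham, 6 of 10 were below 0 without Sham replicate 2 or pMx replicate 1 and 7 without Sham replicate 3, and the median ran from -0.11 without pMx replicate 2 to -0.39 without pMx replicate 3.

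The summed TPM of red cell, smooth muscle, endothelial, granulocyte and Schwann cell markers was ordered like the means of Fosb, Jun, Egr1, Atf3, Ier2 and Nr4a1. The median library was highest in Intact and lowest in pMx, but not every marker followed that order. The 4 red cell markers summed to 18804 to 36303 TPM in Intact, 9383 to 14251 TPM in Sham and 791 to 923 TPM in pMx, and the 6 smooth muscle markers to 5169 to 7857, 3648 to 4225 and 2144 to 2357 TPM. Between pMx and Sham, 2 of the 6 smooth muscle markers and 3 of the 8 endothelial markers had log2 fold changes above 0. The endothelial markers summed to 956 to 1242, 798 to 867 and 640 to 805 TPM. Intact replicate 2 had the highest sum of red cell, smooth muscle, endothelial, granulocyte and T and B cell markers, and the highest level of most members. The 8 adipocyte markers summed to 3608 to 9202 TPM in Intact and 5777 to 6784 TPM in Sham against 404 to 667 TPM in pMx, and the 5 Schwann cell markers to 252 to 457, 311 to 388 and 73.5 to 90.3 TPM. All 4 red cell, 8 adipocyte and 5 Schwann cell markers were called lower in pMx against both other groups. Of the immune lists, the 8 macrophage markers summed to 1192 to 1899, 1976 to 2025 and 1245 to 1763 TPM. The 8 T and B cell markers summed to 13.8 to 31.9, 20.3 to 24.3 and 12.2 to 15.1 TPM. The 8 granulocyte markers summed to 68.4 to 201, 42.5 to 51.9 and 10.01 to 26.3 TPM, with Elane at 0 in pMx. Markers within these lists did not move together. In pMx against Intact, 4 macrophage markers were called higher and 1 lower, 3 T and B cell markers higher and 3 lower, and 1 granulocyte marker higher and 6 lower. Mean Cd68 was 79.2 TPM in Intact and 209 TPM in pMx, and mean Cd163 was 27.7 and 5.05 TPM. Among all tested genes 23.4% were called higher and 27.1% lower. RNA integrity, as the study lists it, was lowest in the Intact samples and highest in the pMx samples, the reverse of the order of these member means. Its values did not overlap between groups, so RNA integrity cannot be told apart from group in these libraries. The part of RNA integrity and of these cell types in the results on the members was not tested, and in bulk tissue fewer cells of a type and less RNA per cell cannot be told apart.

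**Figure D1:**
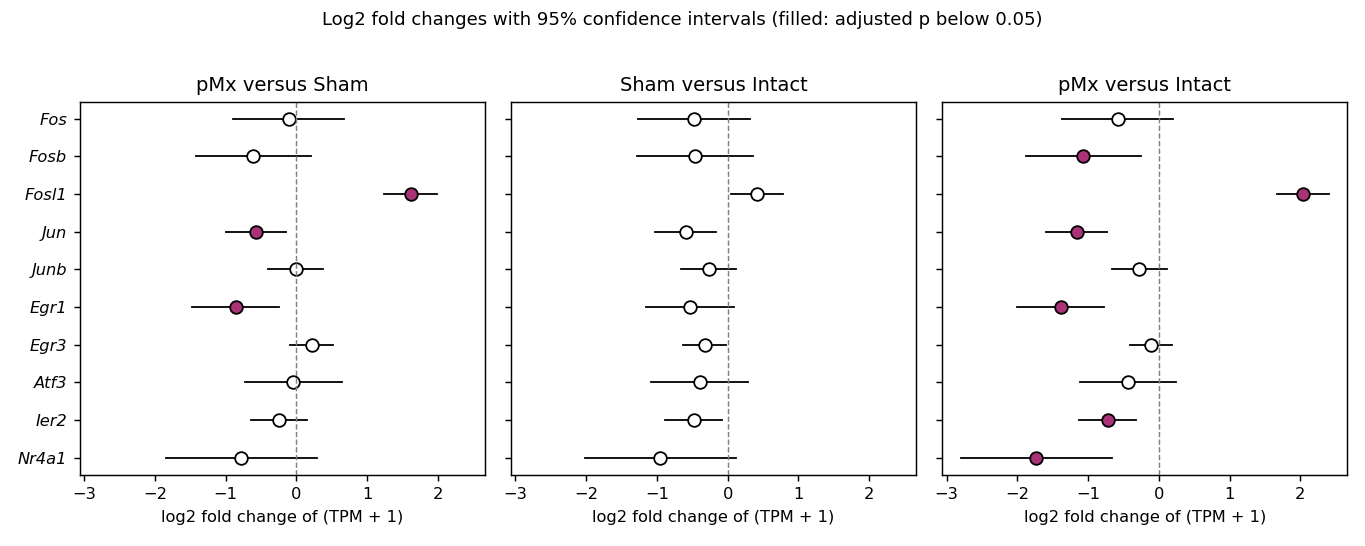
Log2 fold change of each of the 10 immediate-early genes on the log2(TPM + 1) scale in the 3 comparisons, with 95% confidence intervals from limma; filled points passed an adjusted p of 0.05. Fosl1 is the only member to the right in both pMx comparisons with an interval clear of 0 (1.62 and 2.03), and Nr4a1, Egr1, Jun, Fosb and Ier2 are filled on the left in pMx against Intact.

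Among the FOS family, Fos (gene 314322), the founding AP-1 subunit, had 172, 337 and 191 TPM in Intact replicates 1 to 3. It had 156, 175 and 149.7 TPM in Sham and 97.1, 137 and 246 TPM in pMx. The pMx libraries spanned a range wider than the whole Sham group and overlapped both other groups. Group means were 233 ± 90.6, 160.3 ± 13.4 and 159.96 ± 77.1 TPM (SD, n = 3) in Intact, Sham and pMx. The difference between pMx and Sham was -0.11 (95% interval -0.89 to 0.68) on the log2 scale, with an adjusted p of 0.846. Against Intact it was -0.58 (-1.37 to 0.20; adjusted p = 0.195), and without pMx replicate 3, the library with the highest Fos of its group, it was -0.94 and passed (adjusted p = 0.0291). It was -0.28 without pMx replicate 1 (adjusted p = 0.532) or Intact replicate 2 (adjusted p = 0.518).

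Fosb (gene 100360880), an AP-1 subunit also known for a truncated, stable splice form, had 12.7, 33.2 and 24.1 TPM in Intact. Sham held 12.2, 14.4 and 21.3 TPM, and pMx held 8.99, 7.48 and 14.0 TPM. Intact replicate 1 lay below the highest pMx library, so the groups overlapped even though pMx was called lower than Intact (log2 fold change -1.07, SE 0.36, adjusted p = 0.0346). That call was lost without Intact replicate 2 (-0.77, adjusted p = 0.109), Intact replicate 3 (-0.997, adjusted p = 0.0758), pMx replicate 1 (-1.01, adjusted p = 0.0921) or pMx replicate 2 (-0.89, adjusted p = 0.111). Between pMx and Sham the difference was -0.61 (-1.42 to 0.21; adjusted p = 0.223).

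Fosl1 (gene 25445) encodes FRA1, a FOS protein without the transactivation domain of FOS that builds up later than FOS after a stimulus. It was the least abundant member, at 0.36, 0.32 and 0.46 TPM in Intact and 1.14, 1.09 and 0.40 TPM in Sham. In pMx it had 4.59, 4.19 and 5.21 TPM, and all 3 libraries lay above every library of the other groups. Sham replicates 1 and 2 lay above Intact, and Sham replicate 3 lay inside the Intact range. Fosl1 rose in pMx by 1.62 (SE 0.16) on the log2(TPM + 1) scale over Sham (adjusted p = 1.59e-04) and by 2.03 over Intact (adjusted p = 1.91e-05). At values this low the added 1 TPM shrinks the change, and the ratio of mean TPM was 5.32 to Sham and 12.3 to Intact. Sham against Intact gave 0.42 (0.05 to 0.79; adjusted p = 0.129), which was 0.62 and passed without Sham replicate 3 (adjusted p = 0.0170).

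Promoters were available for 6 members in a RefSeq table of the rat assembly GRCr8 (Fosb, Fosl1, Junb, Egr1, Ier2 and Nr4a1), and the 250 bases before the transcription start were searched for short motifs on both strands. The Fosl1 window, chr1:212183635-212183884 on the + strand, is shown because Fosl1 was the member that rose. Capitals mark the short form of the cAMP response element (TGACG, or CGTCA on the other strand), to which CREB and ATF proteins bind.
Fosl1: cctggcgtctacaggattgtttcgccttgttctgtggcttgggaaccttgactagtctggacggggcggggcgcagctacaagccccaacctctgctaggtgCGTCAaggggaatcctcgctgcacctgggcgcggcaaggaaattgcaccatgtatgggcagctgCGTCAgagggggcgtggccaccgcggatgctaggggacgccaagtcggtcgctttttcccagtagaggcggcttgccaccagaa
It held 2 short elements, with first bases 148 and 84 bases before the start (-148 and -84), and no full cAMP response element (TGACGTCA), AP-1 site (TGANTCA), EGR site (GCGNGGGCG) or CArG box, the serum response factor motif.

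Within the FOS family of 4 genes, Fos made up most of the summed TPM in every group. Its mean share was 78.8% ± 3.23 in Intact, 76.2% ± 3.39 in Sham and 70.5% ± 8.70 in pMx (SD, n = 3). Fosl1 held 0.142%, 0.417% and 2.26%, so even in pMx it was a small part of the family transcripts. Fosl2, the close relative that encodes FRA2, held 13.2% in Intact, 15.8% in Sham and 22.5% in pMx. Its level was 30.2, 34.0 and 35.8 TPM in Sham and 43.4, 51.3 and 42.0 TPM in pMx, without overlap (log2 fold change 0.44, adjusted p = 0.00837). The pMx libraries differed among themselves in this makeup, since Fos held 63.0% in replicate 1, 68.5% in replicate 2 and 80.1% in replicate 3.

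**Figure D2:**
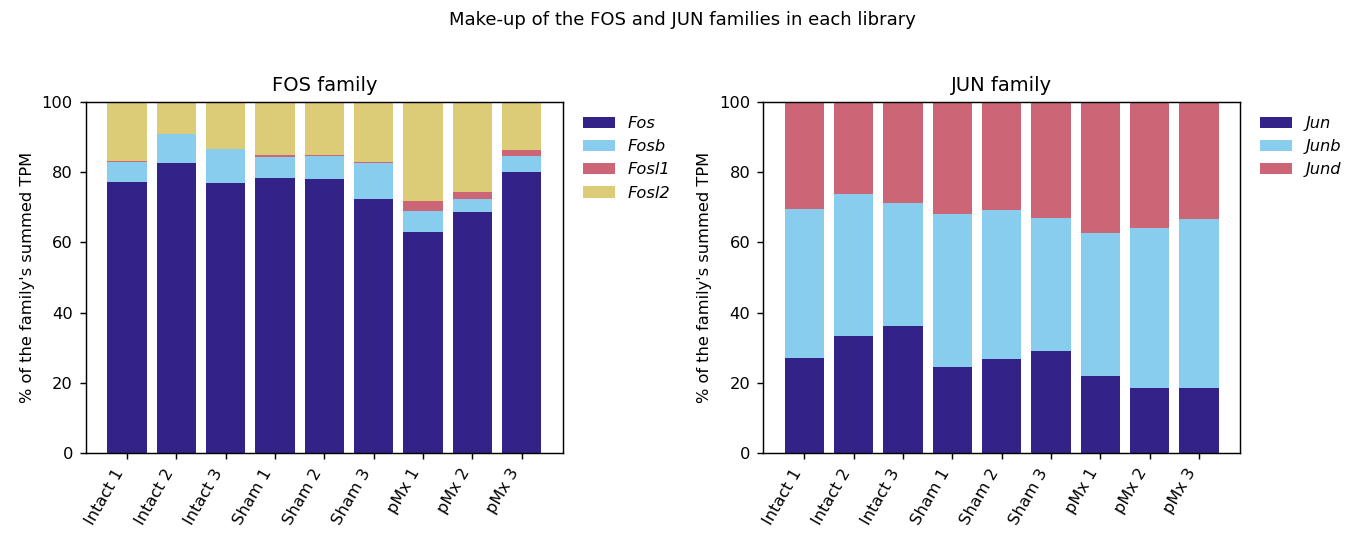
Share of the summed TPM of the FOS family (Fos, Fosb, Fosl1, Fosl2) and of the JUN family (Jun, Junb, Jund) held by each gene in each of the 9 libraries, in percent. Fos fills most of the FOS family throughout, from 63.0% in pMx replicate 1 to 82.5% in Intact replicate 2, and Jun goes from 36.2% of the JUN family in Intact replicate 3 to 18.5% in pMx replicates 2 and 3.

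Jun (gene 24516), the main partner of FOS in AP-1, had 142, 253 and 215 TPM in Intact replicates 1 to 3. Sham libraries had 114, 137 and 142 TPM, and pMx libraries had 88.9, 85.2 and 88.7 TPM. Every pMx library lay below every Sham and Intact library, and Sham overlapped Intact because of Intact replicate 1. Jun was the steadiest member within pMx, with a coefficient of variation of 2.37%, compared with 27.8% in Intact. It fell by 1.16 (SE 0.19) on the log2 scale from Intact to pMx (adjusted p = 9.76e-04). Jun was also lower in pMx than in Sham (log2 fold change -0.57, SE 0.19, adjusted p = 0.0432). That second call was lost in 5 of 9 fits that left out 1 library, namely Sham replicate 2 or 3 or any pMx replicate, with log2 fold changes of -0.58 to -0.51 and adjusted p of 0.0913 to 0.131. Sham against Intact gave -0.59 (-1.02 to -0.16; adjusted p = 0.0745), and -0.83 without Intact replicate 1 (adjusted p = 0.00601).

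Junb (gene 24517), a JUN protein with weaker activating capacity than JUN, was among the most abundant members. It had 222, 307 and 207 TPM in Intact, 201, 218 and 183 TPM in Sham, and 163, 209 and 230.4 TPM in pMx. The 3 groups overlapped, and the means of Sham and pMx lay within 1 TPM of each other (200.7 ± 17.4 and 201.1 ± 34.3 TPM, SD, n = 3). The difference between pMx and Sham was -0.01 (-0.40 to 0.38; adjusted p = 0.977) and between pMx and Intact -0.28 (-0.67 to 0.11; adjusted p = 0.207). Jund, the constitutive member of the family, had group means of 177, 156 and 158 TPM and was not called in any comparison. Within the JUN family of 3 genes, Jun held 32.2% ± 4.66 of the summed TPM in Intact, 26.9% ± 2.27 in Sham and 19.7% ± 2.05 in pMx (SD, n = 3), while Junb held 39.2%, 41.2% and 44.8%.

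Atf3 (gene 25389) had 35.4, 82.0 and 73.9 TPM in Intact and 33.9, 50.8 and 53.9 TPM in Sham. The pMx libraries were close together, at 42.6, 42.5 and 47.0 TPM, inside the range of both other groups. Replicate 1 was the lowest library of both Intact and Sham. No comparison was called, with -0.04 (-0.72 to 0.64; adjusted p = 0.936) for pMx against Sham and -0.44 (-1.12 to 0.25; adjusted p = 0.259) for pMx against Intact. The differences from Intact depended on single libraries. Without Intact replicate 1, Atf3 was lower in pMx (-0.81, adjusted p = 0.00792) and in Sham (-0.77, adjusted p = 0.0360) than in Intact, and without Intact replicate 2 the differences were -0.21 (adjusted p = 0.602) and -0.17 (adjusted p = 0.774). Without Intact replicate 3 they were -0.29 and -0.25, and without Sham replicate 1 Sham against Intact was -0.19.

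Egr1 (gene 24330), which binds GC-rich promoters of growth factor and matrix genes, had 86.3, 134 and 74.8 TPM in Intact. Sham followed with 67.7, 68.3 and 60.9 TPM and pMx with 34.8, 25.3 and 51.9 TPM. The 3 groups did not overlap, and Egr1 was the only member whose libraries were fully ordered as Intact, Sham and pMx. It fell by 1.39 (SE 0.27) on the log2 scale from Intact to pMx (adjusted p = 0.00273). Egr1 was lower in pMx than in Sham by a log2 fold change of -0.86 (SE 0.27, adjusted p = 0.0367), and Sham against Intact gave -0.53 (-1.15 to 0.08; adjusted p = 0.236). The call against Sham was lost in 5 of 9 fits that left out 1 library, namely any Sham replicate or pMx replicate 1 or 2, with adjusted p of 0.0742 to 0.113 and a log2 fold change of -0.61 without pMx replicate 2. Its 250-base window held 2 CArG boxes (first bases at -105 and -83) and 2 short cAMP response elements (-135 and -66). Egr1 was the only one of the 6 members with a CArG box, a motif present in 1.50% of the 33469 promoters of the table.

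Egr3 (gene 25148), a relative of EGR1 that is usually induced after it, was low and even. It had 5.60, 6.30 and 5.62 TPM in Intact, 4.31, 5.46 and 3.72 TPM in Sham, and 5.77, 4.77 and 5.49 TPM in pMx. Sham lay below Intact without overlap, and pMx overlapped both. The log2 fold change was -0.33 (-0.63 to -0.03; adjusted p = 0.143) for Sham against Intact and 0.22 (-0.09 to 0.52; adjusted p = 0.240) for pMx against Sham. Of the relatives, Egr2 averaged 6.56, 4.71 and 3.69 TPM in Intact, Sham and pMx and was lower in pMx than in Intact (-0.68, adjusted p = 0.00636), and Egr4 did not exceed 0.12 TPM in any library.

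Ier2 (gene 494344) had 111, 159 and 97.8 TPM in Intact. Sham held 94.7, 89.9 and 73.8 TPM, all below Intact, and pMx held 71.2, 65.9 and 80.2 TPM, which overlapped Sham through Sham replicate 3. Ier2 fell by 0.73 (SE 0.17) on the log2 scale from Intact to pMx (adjusted p = 0.00813). The other differences were -0.48 for Sham against Intact (-0.88 to -0.08; adjusted p = 0.109) and -0.24 for pMx against Sham (-0.64 to 0.16; adjusted p = 0.319). Without Intact replicate 3 the Sham difference was -0.63 and passed (adjusted p = 0.0371), and without Intact replicate 2 it was -0.28 (adjusted p = 0.220). The Ier2 window, chr19:40399123-40399372 on the + strand, is shown because it held the only full cAMP response element (capitals) of the 6 members.
Ier2: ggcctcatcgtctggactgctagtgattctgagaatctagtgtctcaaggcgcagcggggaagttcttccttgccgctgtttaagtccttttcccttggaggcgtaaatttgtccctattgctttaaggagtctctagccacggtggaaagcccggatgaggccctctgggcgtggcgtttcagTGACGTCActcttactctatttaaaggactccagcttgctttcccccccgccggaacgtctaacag
The element began 66 bases before the start (-66), and 1.59% of all promoters in the table held one. It contains both overlapping short elements counted for Ier2.

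Nr4a1 (gene 79240), which encodes NUR77, had the largest pooled within-group SD on the log2 scale. It had 36.5, 118 and 88.2 TPM in Intact, 22.9, 39.9 and 55.2 TPM in Sham, and 20.7, 15.1 and 30.2 TPM in pMx. All pMx libraries lay below all Intact libraries, while Sham overlapped both. Nr4a1 fell by 1.73 (SE 0.47) on the log2 scale from Intact to pMx (adjusted p = 0.0140), a call lost without pMx replicate 2 (-1.50, adjusted p = 0.0517). The difference was -0.95 for Sham against Intact (-2.02 to 0.12; adjusted p = 0.222) and -0.78 for pMx against Sham (-1.85 to 0.29; adjusted p = 0.232), intervals that hold both no change and a large decrease. Of its relatives, Nr4a2 was not called in any comparison, at means of 6.77, 6.13 and 7.82 TPM. Nr4a3 was lower in pMx than in Intact (-0.51, adjusted p = 0.0264), at 0.913 ± 0.259 against 1.72 ± 0.363 TPM (SD, n = 3).

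The Nr4a1 window, chr7:134259888-134260137 on the + strand, is shown because it held the most short cAMP response elements of the members and the only EGR site. Capitals mark both motifs, and the longest run in capitals is the EGR site.
Nr4a1: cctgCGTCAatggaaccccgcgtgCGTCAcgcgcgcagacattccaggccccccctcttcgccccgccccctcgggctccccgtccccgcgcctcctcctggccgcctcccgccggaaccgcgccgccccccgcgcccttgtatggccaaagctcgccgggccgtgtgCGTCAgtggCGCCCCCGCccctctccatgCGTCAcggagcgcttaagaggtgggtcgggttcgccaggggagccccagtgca
The 4 short elements began at -246, -226, -82 and -53, and the EGR site at -73. Short elements occurred in 5 of the 6 windows (11 matches, counting those inside the full element) and in 18.2% of all promoters. The EGR site occurred in 4.29% of all promoters. Junb held the only TATA box (TATAAA, sense strand, -49), found in 8.06% of promoters, and no window held an AP-1 site, found in 6.34%. A match describes letters in the window and does not show binding.

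**Figure D3:**
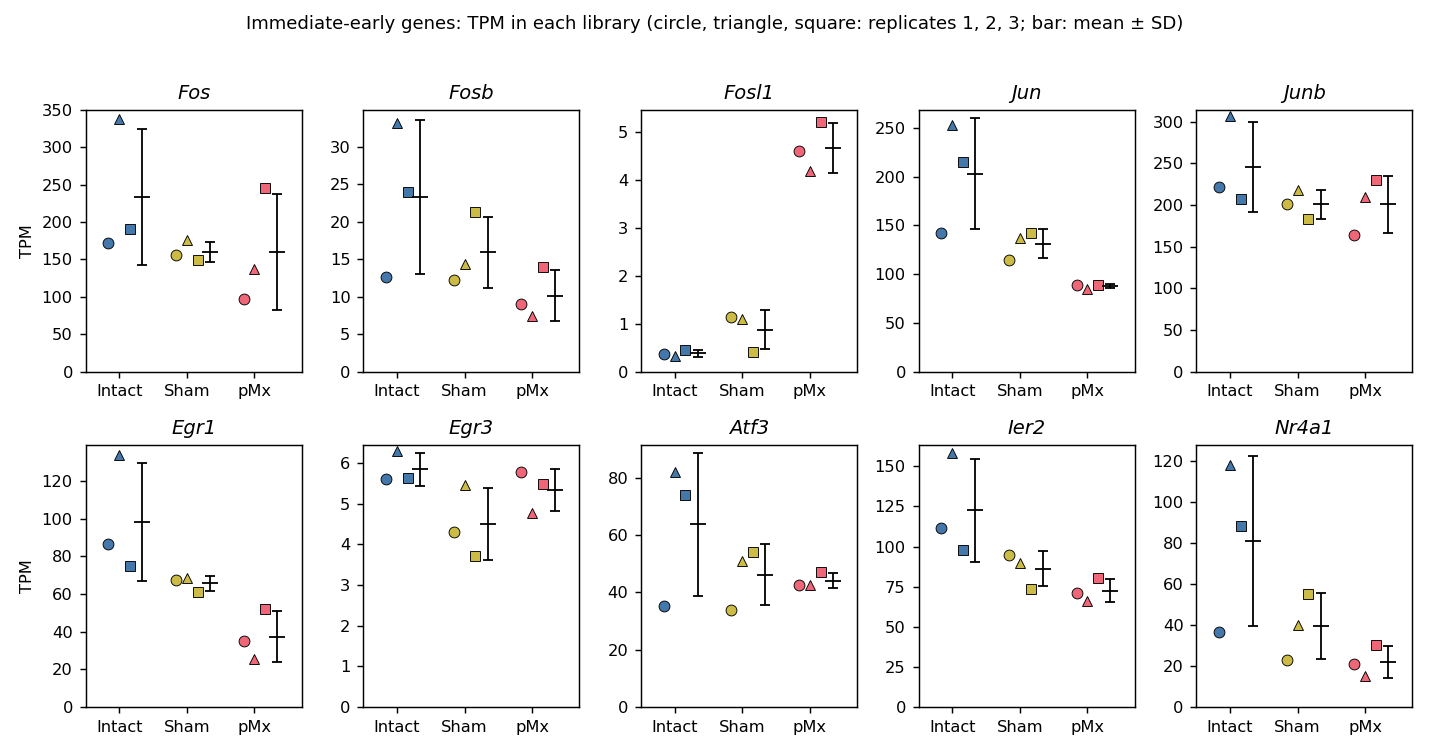
TPM of the 10 immediate-early genes (linear axis from 0, scaled to each gene) in Intact, Sham and pMx, with a circle, triangle and square for replicates 1, 2 and 3 and bars for the mean ± SD. Fosl1 sits at 4.19 to 5.21 TPM in pMx, above all Sham and Intact points, whereas the Egr1 points are ordered without overlap as Intact (74.8 to 134), Sham (60.9 to 68.3) and pMx (25.3 to 51.9).

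Replicates differed more in these genes than in most others, since 61.7% (for Egr3) to 97.8% (for Nr4a1) of all tested genes had a smaller within-group spread. The comparison was not matched for expression level, and the added 1 TPM shrinks the spread of genes near 0 TPM. The within-group SD on the log2(TPM + 1) scale was 0.68 for Nr4a1, 0.51 for Fosb, 0.50 for Fos, 0.43 for Atf3 and 0.39 for Egr1, and the median over all tested genes was 0.13. At the other end, Egr3 had an SD of 0.16. Intact replicate 2 was the highest of its group for 9 of 10 members (43.1% of all tested genes were highest there), and Fosl1 was the exception. Replicate 3 of pMx was the highest of its group for 8 of 10 members (30.0% of all genes), and pMx replicate 2 was the lowest for 8 (30.2% of all genes). Summed over the members, TPM was 823, 1430 and 978 in Intact, 708, 800.5 and 744 in Sham, and 538, 597 and 799 in pMx.

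The members did not all deviate in the same libraries. Deviations from the group mean were correlated over the 9 libraries, which keep 6 degrees of freedom after the group means are taken out and share their scaling to a fixed total, so the values are descriptive. Jun, Atf3, Fosb and Nr4a1 deviated together, with Pearson's r from 0.86 (Fosb with Jun or Atf3) to 0.98 (Jun with Atf3), and all 4 were lowest in Intact replicate 1 and Sham replicate 1 and highest in Sham replicate 3. Fos and Junb (r = 0.90), Egr1 and Ier2 (r = 0.84) and Ier2 and Junb (r = 0.79) formed other close pairs, and these 4 genes were lowest in Sham replicate 3. Over all 45 pairs, 18 had r above 0.5, 4 were below 0 and the median was 0.37.

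**Figure D4:**
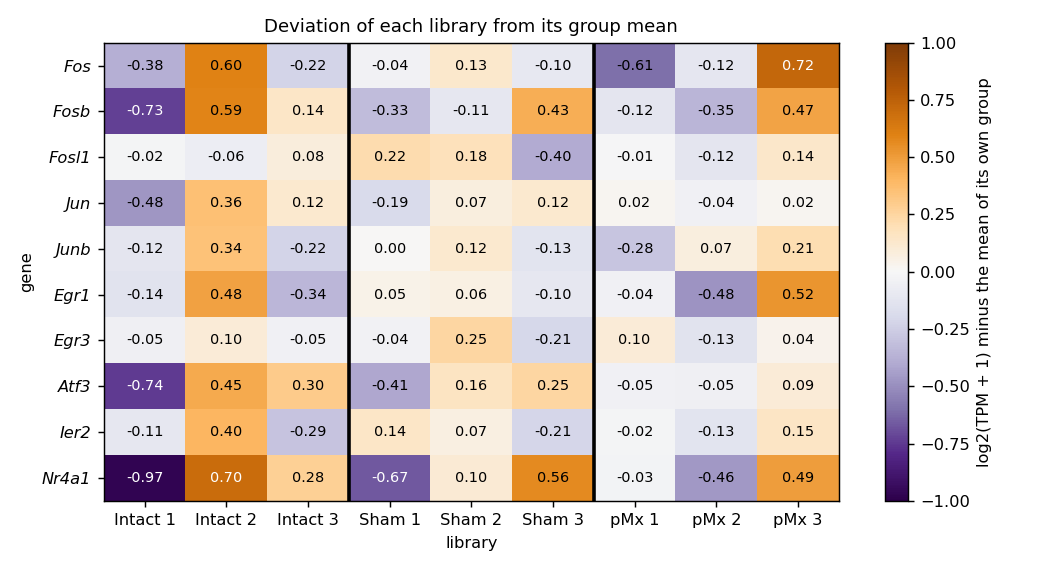
Deviation of each member from its group mean on the log2(TPM + 1) scale in each of the 9 libraries, with the value written in each cell. Intact replicate 2 is above its group mean for every member but Fosl1, and Nr4a1 ranges from -0.97 in Intact replicate 1 to 0.70 in Intact replicate 2.

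Genes whose log2(TPM + 1) ran most like a member over the 9 libraries were taken from 10702 genes with a mean of at least 5 TPM, as a description that mixes differences between groups with differences between replicates. Nr4a1 ran closest to Apold1 (r = 0.98), Car2 (0.96), Ppp1r15a (0.95), LOC100361913 (0.93) and Btg2 (0.92). Jun ran closest to Camk2g (0.98), with Apold1, Dmd and Sik1 also near (each 0.97). The nearest to Egr1 were St6gal1, Rhobtb2, Sema3g, Tek and Dstn (each 0.97), among which Tek encodes the angiopoietin receptor of endothelial cells. Fosl1 was followed by Gpc1 (r = 0.996), Mlec (0.995), Tdg (0.994), Gtse1 (0.993) and Enpp1 (0.993), and the mean TPM of each was highest in pMx. Fos had weaker neighbours, led by Cox18 (0.91) and followed by Lmbr1, Supt4h1, Tlk2 and Spred2 (0.88 to 0.89).

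Of 42 other immediate-early and fast-response genes, 12 fell and 7 rose in pMx against Sham, with a median log2 fold change of -0.07. Over all tested genes, 18.9% were called lower and 17.7% higher. The lower genes were led by Ccn2, which encodes the matricellular protein CTGF, with Hes1, a NOTCH target (-1.01), and the Krüppel-like factors Klf4 (-0.99) and Klf9 (-0.79). Ccn2 stepped down without overlap, from 1204, 1619 and 1242 TPM in Intact to 699, 531 and 732 TPM in Sham and 284, 246 and 241 TPM in pMx. Its log2 fold change was -1.05 for Sham against Intact (SE 0.15, adjusted p = 0.00625) and -1.34 for pMx against Sham (SE 0.15, adjusted p = 3.00e-04). The higher genes were led by Socs3, the feedback inhibitor of cytokine receptors (1.03), Ier3 (0.81), Gadd45b (0.74) and Myc (0.53). Socs3 had 33.3, 30.3 and 20.3 TPM in Sham and 46.7, 70.7 and 56.2 TPM in pMx, which did not overlap (adjusted p = 0.00436).

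In pMx against Intact, 20 of the 42 were lower and 8 were higher, with a median of -0.41. Sham against Intact had 4 lower (Ccn2, Plk2, Nfkbia and Klf4) and 1 higher (Ier3, 0.36). The shares of all tested genes were 27.1% lower and 23.4% higher in pMx against Intact, and 5.97% and 6.73% in Sham against Intact. The lower count between Sham and Intact was 8 without Intact replicate 3, and without Intact replicate 2 the single higher call was lost. Among abundant genes of this list, Klf2 and Sgk1 fell in pMx against both other groups, with log2 fold changes against Sham of -0.79 and -0.43. Ccn1, which encodes CYR61, had 221, 446 and 262 TPM in Intact, 134, 228 and 201 TPM in Sham and 256, 182 and 288 TPM in pMx, with no call. Rhob and Btg1 were not called either.

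Other AP-1 and ATF dimer partners showed 4 lower and 1 higher of 17 in pMx against Sham, with a median log2 fold change of -0.07. Among all tested genes 18.9% were called lower and 17.7% higher. Atf5, a stress-response relative of ATF4, had 210, 209 and 277 TPM in Sham and 59.6, 58.0 and 70.6 TPM in pMx (log2 fold change -1.86, SE 0.14, adjusted p = 5.00e-05). Creb5 (-0.87), Mafk (-0.78) and Batf3 (-0.74) were the other genes that fell, and Creb3 (0.31) rose. Atf4 itself was not called, at means of 362 TPM in Intact, 314 TPM in Sham and 352 TPM in pMx. Sham against Intact had 2 lower (Atf5 and Mafk) and 2 higher, Maf among them (0.33), and pMx against Intact had 6 lower and 4 higher. Those comparisons called 5.97% and 27.1% of all tested genes lower, and 6.73% and 23.4% higher.

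Upstream kinases and serum response factor partners differed by small amounts between pMx and Sham. Of 21 genes, 2 fell and 3 rose in pMx against Sham, where 18.9% of all tested genes were called lower and 17.7% higher. None changed by more than 1 on the log2 scale, and the median was -0.03. Map2k6, a p38 kinase activator, was at -0.73 and Elk3, an SRF partner, at 0.41. Srf was the only one called between Sham and Intact (-0.34, adjusted p = 0.0260), where 5.97% of all tested genes were called lower and 6.73% higher. In pMx against Intact 8 were lower and 5 were higher, where 27.1% and 23.4% of all tested genes were called, and Mapk3, which encodes ERK1, was not called in any comparison.

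Feedback inhibitors of these pathways comprised 20 phosphatases, Sprouty proteins, RNA decay factors and corepressors. Dusp1, Zfp36 and Sik1 were also counted among the other immediate-early and fast-response genes above, so the counts of these lists are not independent. In pMx against Sham 6 fell and limma called 0 higher, with 7 lower and 3 higher at an unadjusted p below 0.05 and a median log2 fold change of 0.00. That comparison called 18.9% of all tested genes lower and 17.7% higher. The genes with the largest decreases were Dusp10, a phosphatase of JNK and p38 (-0.96), Zfp36, which degrades cytokine and immediate-early transcripts (-0.75), Sik1 (-0.73) and Spry1 (-0.64). Spry1, an inhibitor of receptor tyrosine kinase signalling, had 16.2, 19.0 and 19.0 TPM in Intact, 9.35, 8.97 and 12.1 TPM in Sham and 7.08, 5.53 and 5.74 TPM in pMx, so that no group overlapped another. Sham against Intact had 3 lower (Spry1, Spry4 and Tob1) and 0 higher, with 6 lower and 0 higher at an unadjusted p below 0.05, and only 1 lower without Intact replicate 2. In pMx against Intact 10 fell and 1 rose (Zfp36l1, 0.35), and 4 were higher without Intact replicate 2. With all libraries, 27.1% of all tested genes were called lower and 23.4% higher in pMx against Intact, and 5.97% and 6.73% in Sham against Intact. At an unadjusted p below 0.05 there were 28.7% of all tested genes in Sham against Intact, in either direction. Dusp1, the MAP kinase phosphatase that is itself an immediate-early gene, averaged 70.0, 37.8 and 40.5 TPM in Intact, Sham and pMx. It was called lower in pMx than in Intact (-0.73, adjusted p = 0.0381). Its mean was lowest in Sham, although Sham against Intact was not called, so the lower level was not particular to pMx.

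Among genes known as targets of AP-1 or EGR factors, more were called higher than lower in pMx. This list, like the others, was chosen with earlier results of these data known, so its counts are descriptive. Of 20, 11 were higher and 1 was lower in pMx against Sham, with a median log2 fold change of 0.61. Against Intact, 13 were higher and 2 lower in pMx, with a median of 1.41. The shares of all tested genes were 17.7% higher and 18.9% lower against Sham, and 23.4% and 27.1% against Intact. The collagenase Mmp13 had 1.05, 0.62 and 0.41 TPM in Intact, 25.4, 44.8 and 9.83 TPM in Sham and 170.3, 119 and 139 TPM in pMx. It was higher in pMx than in Sham (log2 fold change 2.60, SE 0.45, adjusted p = 0.00231) and in Sham than in Intact (3.82, SE 0.45, adjusted p = 0.00382). Ptgs2, the inducible prostaglandin synthase (2.77), Hmox1, the heme-degrading enzyme (2.12), and the protease stromelysin Mmp3 (1.68) were the other leading genes in pMx against Sham. The abundant genes Timp1, Cd44 and Tgfb1 also rose in pMx against Sham, and Spp1 had 130.2, 265 and 38.9 TPM in Sham and 292, 259.9 and 396 TPM in pMx without passing (1.48, adjusted p = 0.149). Hbegf, a ligand of the EGF receptor, was the gene that fell, from 158, 91.3 and 141 TPM in Sham to 71.4, 63.8 and 54.6 TPM in pMx (-1.001, adjusted p = 0.00547). Sham against Intact had 7 higher, led by Mmp13, Spp1, Mmp9 and Hmox1, and limma called 0 lower, with 10 higher and 5 lower at an unadjusted p below 0.05. Without Intact replicate 3 the lower count was 3. With all libraries, Sham against Intact called 6.73% of all tested genes higher and 5.97% lower, and 28.7% had an unadjusted p below 0.05 in either direction.

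Heat shock genes, another group that responds to stress and handling, had 11 of 12 listed members in the table. In pMx against Sham 2 rose, Hsph1 (0.26) and Hspa8 (0.25), and 0 were called lower in limma, with 3 higher and 2 lower at an unadjusted p below 0.05. That comparison called 17.7% of all tested genes higher and 18.9% lower. Sham against Intact had 0 calls in limma, with 0 higher and 2 lower at an unadjusted p below 0.05. Of all tested genes, 6.73% were called higher there and 5.97% lower, and 28.7% had an unadjusted p below 0.05. In pMx against Intact Hspa8 and Hsph1 rose and Hspa1b, Hspb1 and Dnaja1 fell, 5 of 11, a share near that of all tested genes. The stress-inducible HSP70 gene Hspa1b had 11.1, 17.3 and 30.5 TPM in Intact, 7.03, 9.18 and 14.9 TPM in Sham and 7.44, 6.91 and 7.17 TPM in pMx, with its highest value in Intact replicate 3. The abundant chaperones Hsp90aa1, Hsp90ab1 and Hspe1 were not called in any comparison.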

How the data were processed

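RNA sequencing was done on 9 libraries, assigned to Intact, Sham and pMx by their titles. Sequencing libraries were made from oligo-dT-selected RNA with dUTP in the cDNA strand made last. The authors deposited TPM per gene from Dr. Tom (BGI). HISAT2 2.0.4 and mRatBN7.2 appear in the submitters' processing notes without a role, and the counting tool, its use of strand and the annotation are not given in the sources used here. Depth is unknown because TPM keeps no read numbers, so precision rests on the 3 replicates per group.

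From the deposited TPM, log2(TPM + 1) was fitted over all 9 libraries for the 16512 genes above 0 in at least 3 libraries, with limma 3.58.1 (trended eBayes) in R 4.3.3 and Benjamini-Hochberg adjustment per comparison. Confidence intervals are not adjusted. Tested on simulated data for pMx against Sham with 16509 genes, the fit recovered 98.5% of 200 genes changed by 2 on the log2 scale and called 8 unchanged genes. Only genes with a mean log2(TPM + 1) above 2 were changed, which leaves out genes as low as Fosl1. They were not chosen for a spread like that of the members, so that share does not show how often smaller changes in the members would be found. Tables and figures were made in Python 3.11.15 with pandas 2.3.3 and Matplotlib 3.10.9.

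The members and gene lists were chosen with earlier results of these data known. Named genes outside the members were up to 4 called genes per list, direction and comparison with the largest change, genes with a mean of at least 100 TPM, and the 5 genes most like Fos, Egr1, Jun, Nr4a1 and Fosl1. Fosl2, Egr2, Egr4, Nr4a2, Nr4a3 and Dusp1 were named outside this rule, after their values were seen. A few genes that the rule names are not reported here. Alternatives were the pseudocount, filters, scaling, variance model, samples in the fit, replicate block and each library left out. List counts without Intact replicate 2 or 3 were added after seeing the data. Shares of all tested genes are not given for fits that left out a library, nor at an unadjusted p in pMx against Sham. Promoters came from RefSeq (GRCr8), matched by gene identifier for 6 of 10 members.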

Additional observations from a re-analysis of the deposited data

How the results depend on the processing

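Of the 10 members, Fosl1 kept its calls in pMx against Sham (log2 fold change 1.42 to 2.53 over all alternatives) and pMx against Intact (1.97 to 3.59), and Jun and Egr1 kept theirs in pMx against Intact. Ier2 kept its call there except under the added fold-change limit, which left 5 of 6 calls. The 3 calls in pMx against Sham became 1 (Fosl1) when a log2 fold change above 1 was also required, and ranged from 1 to 3 when 1 library was left out. Under median-of-ratios rescaling Jun was lost there (adjusted p = 0.0554). Calls in Sham against Intact ranged from 0 to 2 when 1 library was left out, with 2 without Intact replicate 1 and 1 without Intact replicate 3 or Sham replicate 3. Calls in pMx against Intact ranged from 4 to 7, and Fosb was also lost under quantile normalization (adjusted p = 0.0535) and in a fit on the 6 libraries compared (adjusted p = 0.0589). The sign turned for 3 uncalled members of pMx against Sham. With 1 library left out, Fos ranged from -0.47 to 0.20, Junb from -0.11 to 0.13 (0.05 without Sham replicate 2) and Atf3 from -0.24 to 0.082 (0.04 without Sham replicate 2). Without Intact replicate 2, uncalled Sham against Intact differences shrank by over 1.5 times for Fos (-0.18), Fosb (-0.16), Junb (-0.10), Egr1 (-0.29), Atf3 (-0.17), Ier2 (-0.28) and Nr4a1 (-0.60). The cause was not tested. No scaling moved the median of all genes by more than 0.046.

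The labels give the groups shared replicate numbers, but deviations of same-numbered libraries correlated at 0.03 to 0.48 between pMx and Sham, -0.49 to 0.00 between Sham and Intact and -0.66 to -0.38 between pMx and Intact, so the numbers were not taken to pair the samples. With the replicate block, 2 members were called in pMx against Sham (Egr1 had an adjusted p of 0.0788), 0 in Sham against Intact and 6 in pMx against Intact. With 3 libraries per group and no read numbers, small differences were not resolved.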
